A study of Mus musculus with 6 samples.

Results

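Transcripts of 10 circadian clock genes were followed in mouse quadriceps muscle: Arntl, Clock, Per1, Per2, Per3, Cry2, Nr1d1, Nr1d2, Dbp and Noct. They were chosen by gene symbol from a table of 11768 genes, and 10 of 10 were found in it. Each gene was listed once. The mice were of 2 groups, fed normal chow. The Control group has the genotype Control f/f, with no other allele given. The mDrp1HET group, also called Drp1-KD, carries a heterozygous knockout, restricted to muscle, of the gene for Drp1, the GTPase that divides mitochondria (Dnm1l). There were 3 columns of values per group. The sample names and the column of p-values carry the letters MCK, which the sources used here do not explain. They spell out neither the driver of the knockout, nor the age or sex of the mice, nor the hour of day at which muscle was taken. Nothing states that each library came from its own animal, so p-values measure only the spread between these libraries.

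The mammalian clock is a transcription loop that most cells run by themselves, skeletal muscle fibres included. BMAL1 (from Arntl) and CLOCK bind E-boxes and switch on the Per and Cry genes, whose proteins then repress BMAL1 and CLOCK. The nuclear receptors REV-ERB alpha and beta (Nr1d1 and Nr1d2) are switched on by the same pair and repress Arntl through ROR elements, and DBP, a further E-box target, acts on D-boxes. In mouse muscle, transcripts of Arntl and of Dbp, Nr1d1 and the Per genes peak at different hours of the day.

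Control replicate 1 and mDrp1HET replicate 3 hold the same library, here called the shared library. For 11334 genes (96.3%) the read number in the first was exactly 2 times that in the second, and the median absolute difference between them was 0.00037 log2 CPM, where CPM is a count scaled to the same total in each library. It was counted as 1 sample of unknown group, which leaves 5 separate libraries. Every comparison is given as labelled (3 columns against 3) and without both copies of this library (2 Control against 2 mDrp1HET libraries, the 4-library comparison). Recovered reads of the shared library were 64728022 in its Control column and 32372360 in its mDrp1HET column. With the smaller number, reads behind the separate libraries ranged from 10394761 to 32372360. The mDrp1HET libraries of the 4-library comparison, at 15782298 and 10394761 reads, were shallower than the Control libraries, at 28664508 and 25019293. Dnm1l itself had a 4-library log2 fold change of 0.11 (95% confidence interval -0.40 to 0.62), so that lower Dnm1l was not detectable in the libraries labelled mDrp1HET. The summed level of 8 muscle fibre markers, among them Ckm and Acta1, was between 16.64 and 17.27 log2 CPM in the 5 libraries, the highest of the marker lists. The median of all genes was shifted by 0.20 (log2) in the 4-library comparison.

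The 4 clock promoters in which a searched clock motif lay before the annotated start, and that of Noct, are shown because they carry the elements the loop works through or belong to the gene that passed the test. Each is the 250 bases before a transcript start, from RefSeq on GRCm38.p6 (for Per1, Per3 and Cry2 a start inside the full span of the gene), read 5′ to 3′ on the strand of the gene, with motifs in capitals. The motifs were the E-box CACGTG, the E-prime box CACGTT, the D-boxes TTATGTAA and TTACGTAA, the CRE TGACGTCA and the ROR element by its consensus, each on both strands. No 2 matches overlapped. AACGTG is the E-prime box read on the other strand.
Per1, chr11:69098699-69098948, plus strand: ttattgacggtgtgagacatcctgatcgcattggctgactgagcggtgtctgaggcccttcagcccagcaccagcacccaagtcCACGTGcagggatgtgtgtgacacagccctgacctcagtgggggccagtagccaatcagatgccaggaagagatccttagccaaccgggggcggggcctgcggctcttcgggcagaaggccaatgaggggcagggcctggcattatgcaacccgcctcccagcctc
Per3, chr4:151044666-151044915, minus strand: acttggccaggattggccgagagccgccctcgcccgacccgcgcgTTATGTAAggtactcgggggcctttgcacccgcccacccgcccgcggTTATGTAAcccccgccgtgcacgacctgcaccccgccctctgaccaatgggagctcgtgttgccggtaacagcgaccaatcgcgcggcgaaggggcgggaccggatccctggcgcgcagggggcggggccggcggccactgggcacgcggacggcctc
Nr1d1, chr11:98775378-98775627, minus strand: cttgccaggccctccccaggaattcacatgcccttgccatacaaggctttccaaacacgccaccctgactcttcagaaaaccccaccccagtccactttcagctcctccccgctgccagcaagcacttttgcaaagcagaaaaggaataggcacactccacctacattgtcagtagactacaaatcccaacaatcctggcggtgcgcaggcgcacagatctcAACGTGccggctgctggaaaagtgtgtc
Cry2, chr2:92434070-92434319, minus strand: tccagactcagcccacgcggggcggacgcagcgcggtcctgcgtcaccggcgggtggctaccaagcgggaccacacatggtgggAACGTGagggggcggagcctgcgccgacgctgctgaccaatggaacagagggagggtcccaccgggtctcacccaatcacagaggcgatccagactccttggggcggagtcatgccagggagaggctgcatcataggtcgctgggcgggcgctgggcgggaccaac
Noct, chr3:51224197-51224446, plus strand: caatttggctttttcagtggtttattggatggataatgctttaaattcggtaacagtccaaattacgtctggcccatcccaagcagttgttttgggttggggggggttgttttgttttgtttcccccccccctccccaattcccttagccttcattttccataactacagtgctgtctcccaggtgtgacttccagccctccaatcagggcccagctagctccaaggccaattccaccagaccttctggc
The ROR element of Arntl begins at base 27 of a transcript, counted from its start as base 1, and 30 bases around it are given.
Arntl, chr7:113207527-113207556, plus strand: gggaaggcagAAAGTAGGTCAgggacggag

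Promoter entries were found for 9 of the 10 genes, all but Per2. Over all 32851 RefSeq promoter windows of 300 bases (250 before and 50 after a start), 7.15% held the E-box, 4.68% the E-prime box, 1.06% a D-box, 0.384% the ROR element and 1.79% the CRE. Per1 had 1 E-box at the start shown above and none of the motifs at its other start (chr11:69099902-69100151). Per3 had 2 D-boxes, and Nr1d1 and Cry2 had 1 E-prime box each. In the windows of Noct, Dbp, Clock and Nr1d2 none of these letters was found, which says nothing on sites elsewhere in these genes.

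Of the 10 clock genes, 1 passed the test: Noct, which encodes nocturnin, a phosphatase of NADPH with a strong daily rhythm in several mouse tissues, rose in the libraries labelled mDrp1HET when the shared library was left out. Dbp and Nr1d1 were the lowest in fold change and Clock, Nr1d2, Per1 and Per2 lay above 0, but none of these 6 passed. Arntl, Per3 and Cry2 were the nearest to 0.

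**Figure D1:**
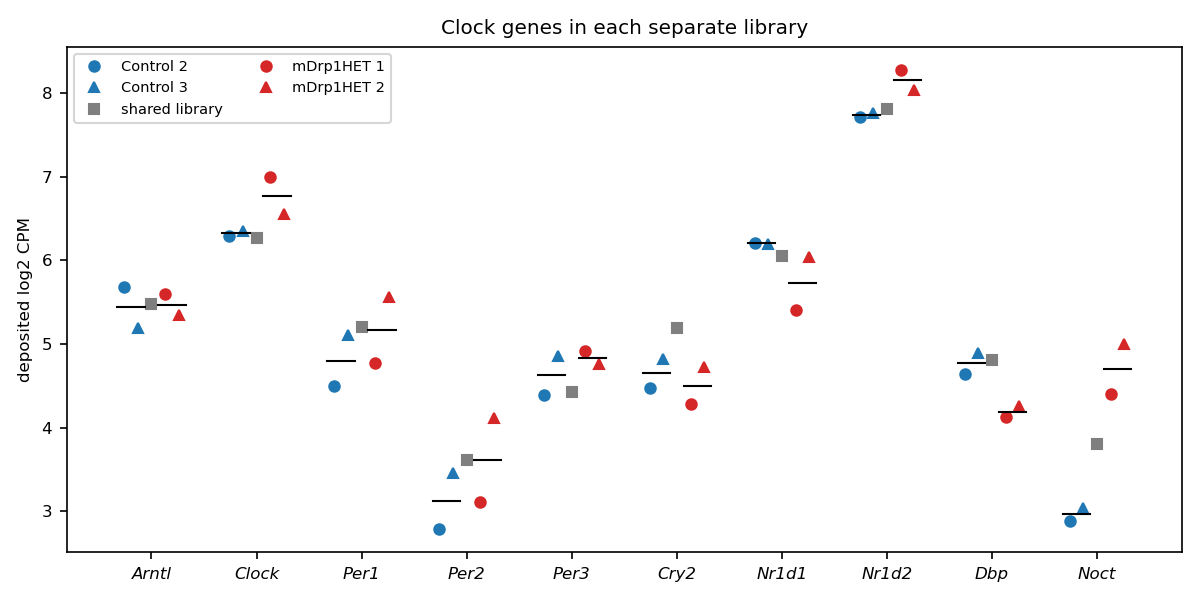
Deposited log2 CPM (y axis) of the 10 clock genes (x axis) in the 5 separate libraries, with 1 symbol per library and black bars for the means of the 2 Control and 2 mDrp1HET libraries. Noct stood at 2.89 and 3.04 in Control, 3.80 in the shared library and 4.40 and 5.002 in mDrp1HET.

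The level of each gene was set against the others per length of transcript, as log2 CPM per kilobase over the 5 libraries. With the longest coding transcript of GENCODE M21, Nr1d2 was highest at 5.70, ahead of Nr1d1 at 4.54, Arntl at 3.88, Dbp at 3.67 and Clock at 3.20. Per1 at 2.80, Cry2 at 2.71, Per3 at 2.09, Per2 at 0.87 and Noct at 0.53 followed. Nr1d2 and Nr1d1 did not overlap across the 5 libraries, nor did Per3 and Per2, and the other neighbours in this order overlapped. With the median length of the coding transcripts in place of the longest, Noct stood at 2.23 and was 8th, above Per3 and Per2, and Dbp stood above Arntl, so the order of neighbours depends on which transcript is taken.

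The activators of the loop came first. Arntl (Entrez 11865, chromosome 7, 113178471 to 113314126, RefSeq GRCm38.p6 as for all positions below) encodes BMAL1, the partner of CLOCK. Its deposited values were 5.68 and 5.19 log2 CPM in Control replicates 2 and 3, 5.47 in the shared library and 5.60 and 5.34 in mDrp1HET replicates 1 and 2. The mDrp1HET libraries lay between the Control ones. The 4-library log2 fold change was 0.03 (95% confidence interval -0.50 to 0.56, standard error 0.24, limma adjusted p = 0.963), and its sign turned with median centring (-0.14), without Control replicate 3 (-0.21) and without mDrp1HET replicate 1 (-0.097).

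Clock (Entrez 12753, chromosome 5, 76209868 to 76305603), the other activator, was at 6.29 and 6.35 log2 CPM in Control, 6.27 in the shared library and 6.99 and 6.55 in mDrp1HET replicates 1 and 2. Both mDrp1HET libraries lay above both Control libraries and the shared one. The Control libraries were 0.06 apart and the mDrp1HET libraries 0.44 apart on the log2 scale, and the 4-library log2 fold change was 0.45 (95% confidence interval -0.04 to 0.94, standard error 0.22, limma adjusted p = 0.333), and 0.23 without mDrp1HET replicate 1. Within each library Clock exceeded Arntl in log2 CPM, by 0.61 and 1.15 in Control, 0.79 in the shared library and 1.40 and 1.21 in mDrp1HET. The Clock coding model is long, so only the change of this difference between libraries can be read.

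The repressors PER and CRY2 followed, and the group ranges overlapped for all 4 of their genes. Per1 (Entrez 18626, chromosome 11, 69095108 to 69109965), whose promoter above holds the E-box, stood at 4.49 and 5.11 log2 CPM in Control, 5.20 in the shared library and 4.77 and 5.56 in mDrp1HET. The groups overlapped. Its 4-library log2 fold change was 0.36 (95% confidence interval -0.31 to 1.03, standard error 0.31), and without mDrp1HET replicate 2 it was -0.03.

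Per2 (Entrez 18627, chromosome 1, 91415977 to 91459351), a paralog of Per1 whose protein also binds CRY proteins, was at 2.78 and 3.46 log2 CPM in Control, 3.62 in the shared library and 3.11 and 4.11 in mDrp1HET. The order of the 5 libraries was that of Per1. Between 136 and 397 reads lay behind these values, with the smaller count of the shared library taken. The 4-library log2 fold change of 0.49 (95% confidence interval -0.32 to 1.30, standard error 0.37) turned to -0.01 without mDrp1HET replicate 2. The difference of Per1 over Per2 stayed between 1.44 and 1.71 log2 in all 5 libraries while each gene ranged over 1.06 and 1.33, in that order.

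Per3 (Entrez 18628, chromosome 4, 150997018 to 151044707), the Per gene whose promoter carries a pair of D-boxes, did not follow the order of Per1 and Per2. It was at 4.39 and 4.86 log2 CPM in Control, 4.43 in the shared library and 4.91 and 4.76 in mDrp1HET. The groups overlapped, and the 4-library log2 fold change was 0.21 (95% confidence interval -0.34 to 0.76, standard error 0.25), turning to -0.03 without Control replicate 2.

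Cry2 (Entrez 12953, chromosome 2, 92403646 to 92434085), a cryptochrome that represses BMAL1 and CLOCK together with PER proteins, had its highest value in the shared library, 5.18 log2 CPM. The Control libraries were at 4.47 and 4.82 and the mDrp1HET libraries at 4.28 and 4.72. The groups overlapped, with a 4-library log2 fold change of -0.15 (95% confidence interval -0.72 to 0.42, standard error 0.26). It was 0.072 without mDrp1HET replicate 1 and 0.027 without Control replicate 3.

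The genes of the REV-ERB receptors had fold changes of opposite sign, and neither passed the test. Nr1d1 (Entrez 217166, chromosome 11, 98767932 to 98775377) stood at 6.20 log2 CPM in each Control library, 6.05 in the shared library and 5.41 and 6.04 in mDrp1HET. Every mDrp1HET value lay below every Control value, with most of the gap in mDrp1HET replicate 1. The 4-library log2 fold change was -0.48 (95% confidence interval -1.02 to 0.06, standard error 0.25, limma adjusted p = 0.351), and -0.16 without mDrp1HET replicate 1.

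Nr1d2 (Entrez 353187, chromosome 14, 18204056 to 18239106), the most abundant of the 10 genes by reads, was at 7.72 and 7.76 log2 CPM in Control, 7.81 in the shared library and 8.27 and 8.03 in mDrp1HET. The mDrp1HET libraries lay above the rest. The 4-library log2 fold change was 0.41 (95% confidence interval -0.03 to 0.86, standard error 0.20, limma adjusted p = 0.331). Nr1d2 exceeded Nr1d1 in log2 CPM by 1.51 and 1.56 in Control, 1.76 in the shared library and 2.87 and 1.996 in mDrp1HET, so that the difference was wider by 0.89 in the mDrp1HET libraries. This difference was not tested.

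Among the outputs, Dbp (Entrez 13170, chromosome 7, 45705100 to 45710203) encodes the D-box activator of the PAR bZIP family. It was at 4.64 and 4.90 log2 CPM in Control, 4.81 in the shared library and 4.12 and 4.25 in mDrp1HET. The mDrp1HET libraries were 0.13 apart and lay below the other 3 libraries. The 4-library log2 fold change was -0.58 (95% confidence interval -1.11 to -0.05, standard error 0.24), with an unadjusted p of 0.0339 and a limma adjusted p of 0.268, so Dbp did not pass over the 11768 genes.

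Exons of Dbp overlap those of Sphk2 on the opposite strand by up to 539 bases, and exons of Nr1d1 overlap those of Thra by up to 263 bases. The library kit keeps strand, but the sources used here do not say whether strand was used in counting. The 4-library log2 fold changes of Sphk2 and Thra were 0.12 and 0.09.

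Noct (Entrez 12457, chromosome 3, 51224447 to 51251654) was at 2.89 and 3.04 log2 CPM in Control, 3.80 in the shared library and 4.40 and 5.002 in mDrp1HET. Between 205 and 452 reads lay behind these values, with the smaller count of the shared library taken. The mDrp1HET libraries lay above the Control libraries, with the shared library in the gap between them. The Control mean of Noct was 2.96 ± 0.10 (SD, n = 2) and its mDrp1HET mean was 4.70 ± 0.43 (SD, n = 2), a log2 fold change of 1.74 (95% confidence interval 1.12 to 2.36, standard error 0.28, limma adjusted p = 0.0437) or 3.34-fold. Its range over the 5 libraries, 2.11 log2, was wider than that of 97.7% of all genes. The call was lost with median centring (1.57, limma adjusted p = 0.170), quantile normalization (1.55, adjusted p = 0.194), without the intensity trend (adjusted p = 0.181), with a minimum mean of 3 log2 CPM (adjusted p = 0.0509) and with removal of the trend on GC content (1.65, adjusted p = 0.0823). Over the alternatives with 2 libraries in each group the limma adjusted p of Noct ran from 0.0026 (robust fit) to 0.194. Leaving out single libraries gave log2 fold changes of 1.44 to 2.04. As labelled, with the shared library in both groups, Noct had a log2 fold change of 1.16 (standard error 0.33, limma adjusted p = 0.753).

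In the labelled comparison 0 of the 10 genes passed, where 0% of all genes did. With limma 1 of the 10, Noct, had an unadjusted p under 0.05 and was higher, against 3.04% of all genes, and voom on recovered reads also called 0 genes of the whole table. The labelled fold changes ran from -0.39 for Dbp to 1.16 for Noct. The p-values in the authors' deposited table were lowest for Noct, at 0.0607, and highest for Arntl, at 0.905.

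**Figure D2:**
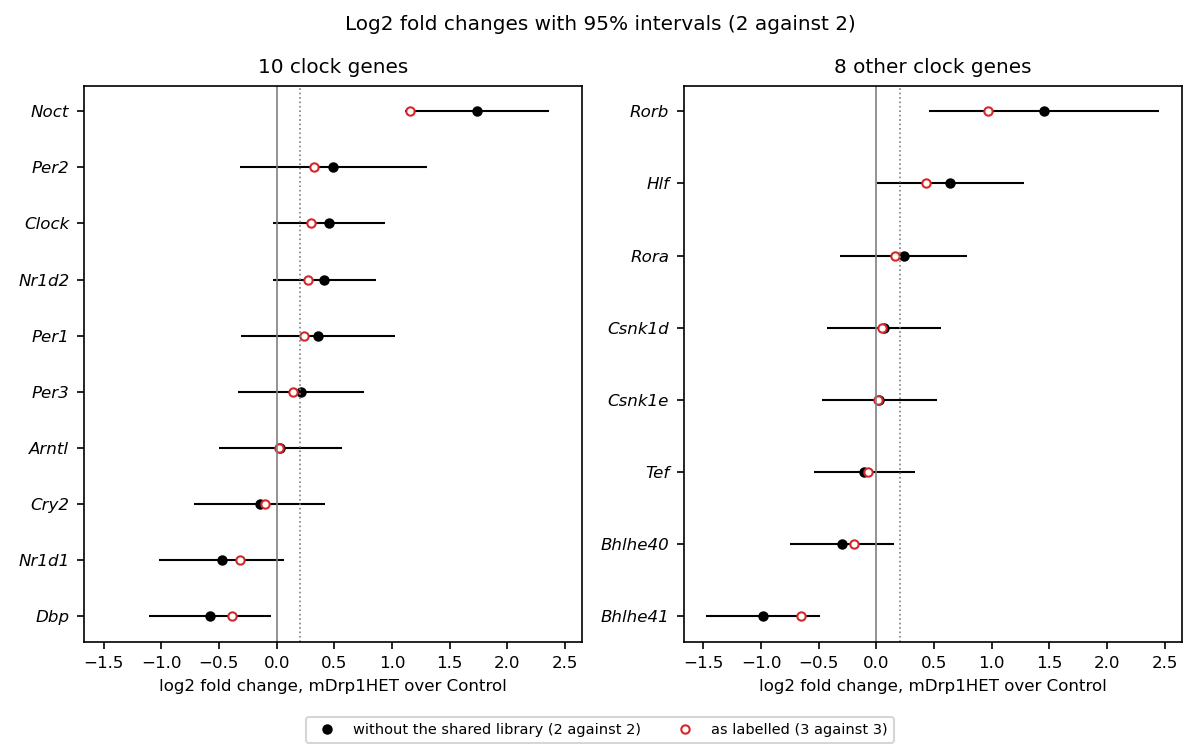
Log2 fold change of mDrp1HET over Control (x axis) for the 10 clock genes (left) and the 8 other clock genes described by name (right). Filled points with 95% intervals are the 2 against 2 comparison, open points the 3 against 3 columns as labelled, the solid line is 0 and the dotted line the median of all genes (0.20). Noct, at 1.74, has an interval that starts at 1.12.

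In the 4-library comparison 1 of 10 passed, where 0.187% of all genes did. At an unadjusted p under 0.05, 1 of the 10 was higher (Noct) and 1 lower (Dbp), against 13.3% and 3.26% of all genes. The median log2 fold change of the 10 was 0.29, against 0.20 for all genes, and 7 of 10 lay above 0, against 69.6% of all genes. The 2 groups did not overlap for 5 of the 10, against 49.9% of all genes: Clock, Nr1d2 and Noct were higher (38.6% of all genes) and Nr1d1 and Dbp lower (11.3%). For 7 of 10 genes the shared library was closer to the mean of Control, against 73.2% in the whole table. The shares above 0, without overlap and closer to Control are thus near those of all genes.

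**Figure D3:**
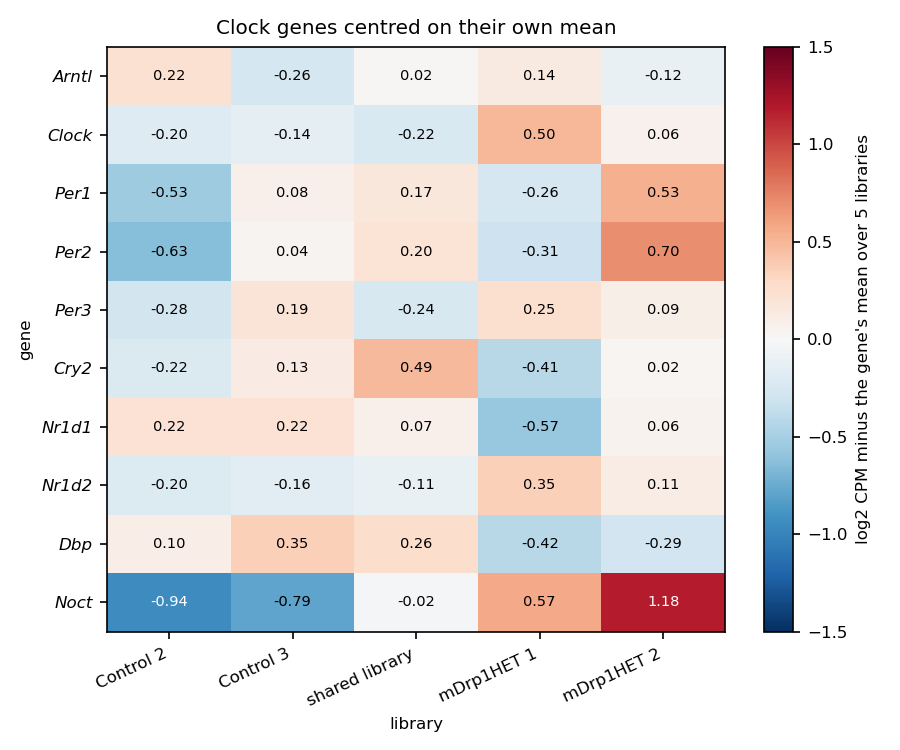
Log2 CPM of each clock gene (rows) in the 5 separate libraries (columns) after subtracting the gene's own mean over the 5, with the value printed in each cell (red above the mean, blue below). Per1 and Per2 share 1 order of libraries, and Clock and Nr1d2 are both highest in mDrp1HET replicate 1, then in replicate 2.

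Likeness between the 10 genes over the 5 libraries was measured as the root mean square distance between profiles centred on their own mean. The nearest pair was Clock and Nr1d2, 0.088 log2 apart, then Per1 and Per2 at 0.093. Nr1d1 and Dbp were 0.208 apart. The most distant pair was Dbp and Noct at 1.06. Noct was above Dbp by 0.28 and 0.75 log2 CPM in the mDrp1HET libraries and below it in the other 3. Control replicate 2 held the lowest value for 5 of the 10 genes (Per1, Per2, Per3, Nr1d2 and Noct), and mDrp1HET replicate 1 the lowest for 3 (Cry2, Nr1d1 and Dbp). These distances describe 5 libraries and carry no test.

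Over the whole table the genes nearest in profile to Dbp were Fam20c (0.037 log2 away), Zbtb40 (0.063), Pbxip1 (0.065), Vwa7 (0.066) and Src (0.067). Those nearest to Noct were Lvrn (0.180), Hif3a (0.191), Tceal7 (0.200), Cep85l (0.202) and Snhg6 (0.211). None of these 10 neighbours belongs to the clock lists used here.

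Fold changes in the whole table fell with the GC content of transcripts (Spearman -0.39 over 11211 genes, a description, since genes share the libraries), and the clock genes differ widely in it. Clock and Nr1d2, both above 0, had a GC content of 40.9% and 41.8%, and Nr1d1 and Dbp, both below 0, had 56.8% and 61.6%. After removal of each library's trend on GC content the 4-library log2 fold changes were 0.20 for Clock, 0.19 for Nr1d2, -0.30 for Nr1d1 and -0.31 for Dbp, each at least 1.5 times nearer 0. Per1 (59.4% GC) went from 0.36 to 0.59 and Per2 (54.3%) from 0.49 to 0.62. Noct (46.0%) went from 1.74 to 1.65 and no longer passed (limma adjusted p = 0.0823). Why fold changes go with GC content was not tested.

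**Figure D4:**
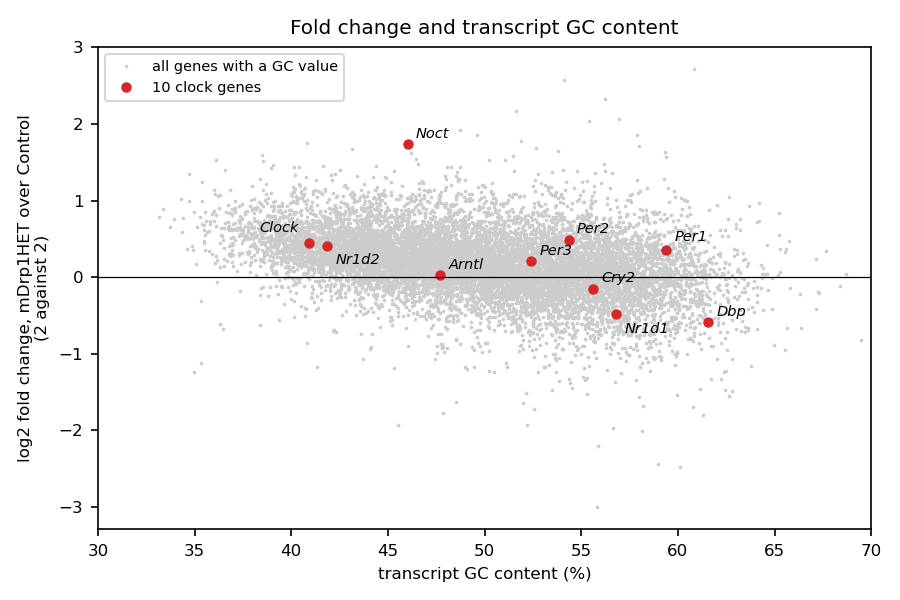
Log2 fold change of the 4-library comparison (y axis) against GC content of the longest coding transcript in percent (x axis), with all genes in grey and the 10 clock genes in red. Clock at 40.9% and Nr1d2 at 41.8% lie above 0, Nr1d1 at 56.8% and Dbp at 61.6% below, and Noct at 46.0% stands apart at 1.74.

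Of 21 other clock genes listed, 18 were measured, and 0 passed in either comparison. In the 4-library comparison 3 of the 18 were higher and 1 was lower at an unadjusted p under 0.05 with limma, against 13.3% and 3.26% of all genes, and voom called 0. The median log2 fold change was 0.12, against 0.20 for all genes. Groups did not overlap for 7 of the 18, against 49.9% of all genes. Bhlhe41, which encodes DEC2, a repressor at E-boxes, had the smallest p of the list: it stood at 5.59 and 5.58 log2 CPM in Control, 5.12 in the shared library and 4.71 and 4.51 in mDrp1HET. Its 4-library log2 fold change was -0.98 (standard error 0.22, limma adjusted p = 0.0936). It passed with a robust fit (limma adjusted p = 0.0320). It did not with median centring (-1.15, adjusted p = 0.134), quantile normalization (-1.14, adjusted p = 0.192) or without the intensity trend (adjusted p = 0.213). Leaving out single libraries gave -1.08 to -0.88 for Bhlhe41. The 4-library log2 fold change of its paralog Bhlhe40 was -0.30.

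Rorb, a receptor for ROR elements that is scarce in muscle, was at 1.10 and 0.07 log2 CPM in Control, 0.69 in the shared library and 2.36 and 1.71 in mDrp1HET, with a log2 fold change of 1.46 (standard error 0.46, limma adjusted p = 0.188). Leaving out single libraries gave 0.94 to 1.97 for Rorb. Between 26 and 81 reads lay behind its values, with the smaller count of the shared library taken. Rora, a receptor that activates Arntl in opposition to the REV-ERBs, had a log2 fold change of 0.24. Hlf, a PAR bZIP relative of Dbp, had 0.64 (standard error 0.29, limma adjusted p = 0.301). Tef, the third member of that family, had -0.10, so that the 3 PAR bZIP genes had fold changes of both signs. The kinase genes Csnk1d and Csnk1e, whose products phosphorylate PER proteins, had 0.07 and 0.03.

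Of 13 genes listed as clock outputs in muscle, 13 were measured and 0 passed in either comparison, with 2 higher and 1 lower at an unadjusted limma p under 0.05 in the 4-library one, against 13.3% and 3.26% of all genes. There voom called 0. Hk2, the hexokinase of muscle, was at 8.31 and 8.34 log2 CPM in Control, 8.37 in the shared library and 7.49 and 7.39 in mDrp1HET, a log2 fold change of -0.88 (standard error 0.20, limma adjusted p = 0.0892). It passed with a robust fit (limma adjusted p = 0.0356). It did not with median centring (-1.05, adjusted p = 0.163), quantile normalization (-0.97, adjusted p = 0.192) or without the intensity trend (adjusted p = 0.223). Leaving out single libraries gave -0.93 to -0.83 for Hk2. Pik3r1, a regulatory subunit of the insulin-responsive PI3 kinase, had 0.59 (standard error 0.22, adjusted p = 0.243), and Pdp1, which activates pyruvate dehydrogenase, 0.52 (standard error 0.21, adjusted p = 0.255, and 0.20 with the trend on GC content removed). The median log2 fold change of the 13 was 0.09, against 0.20 for all genes.

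Genes that glucocorticoids induce, Per1 being a known target too, were read beside the clock genes. Of 10 listed 9 were measured, 9 lay above 0 in the 4-library comparison (69.6% of all genes), and 1 passed (0.187% of all genes): Cebpd (log2 fold change 2.16, limma adjusted p = 0.0404). With median centring or without the intensity trend, 0 genes of the whole table passed, so Cebpd lost its call there. With voom 2 of the 9 passed, where 51 of 11768 genes did: Cebpd (adjusted p = 0.0258) and Ddit4 (adjusted p = 0.0414). The groups did not overlap for 8 of the 9, all higher in mDrp1HET, against 38.6% of all genes. Their summed level was 9.77 log2 CPM in each Control library, 10.25 in the shared library and 10.22 and 10.43 in mDrp1HET. For this sum the shared library lay within the mDrp1HET range. Of 8 immediate early genes, 7 were measured, 0 passed with limma or voom, 1 was lower at an unadjusted limma p under 0.05 (3.26% of all genes), and their median log2 fold change was -0.26, against 0.20 for all genes. The part of glucocorticoid action in the clock gene values was not tested.

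Of the markers of muscle fibres and of other cells of a muscle piece, 0 passed in either comparison with limma or voom. At an unadjusted limma p under 0.05 in the 4-library comparison, 5 of 7 fibro-adipogenic and 3 of 7 macrophage markers were higher (13.3% of all genes) and 3 of 8 muscle fibre markers lower (3.26%). By sign, 7 fibro-adipogenic and 6 macrophage markers lay above 0 (69.6% of all genes), and 1 macrophage marker lay below. Of the muscle fibre markers 6 lay below 0 and 2 above, up to 0.29, with a median log2 fold change of -0.15. The summed levels of these 3 lists did not overlap between the groups, and neither did 49.9% of all genes taken singly. Fibro-adipogenic markers (7 of 7 measured) summed to 10.22 and 10.79 log2 CPM in Control and to 11.17 in each mDrp1HET library, and macrophage markers (7 of 8) to 7.14 and 7.67 in Control and 8.12 and 7.99 in mDrp1HET. Muscle fibre markers (8 of 8) summed to 17.19 in each Control library and to 16.74 and 16.64 in mDrp1HET. In the shared library the fibro-adipogenic, macrophage and muscle fibre sums were 10.37, 7.47 and 17.27, in that order. The summed levels of endothelial, smooth muscle, adipocyte, erythroid, Schwann cell and tendon markers overlapped between the groups. Taken singly, 5 of 5 adipocyte markers lay above 0, with a median log2 fold change of 0.81. For 4 of the 5 the mDrp1HET libraries lay above both Control libraries (38.6% of all genes). The 3 measured smooth muscle markers lay below 0, with a median of -0.68. The part of these differences in the clock gene values was not tested, and in whole tissue fewer cells of a type and less RNA per cell cannot be told apart.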

How the data were processed

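RNA of frozen quadriceps muscle with an integrity number above 7 was depleted of ribosomal RNA and made into stranded TruSeq libraries, per the labels' protocols. The authors deposited log2 CPM values and a p-value per gene for 11768 genes in 6 columns, per the file headers. Every deposited value was above 0. FastQC, DESeq2 1.30.0 and the build GRCm38 are named in the submitters' processing notes, and the aligner and counter are not given in the sources used here. Steps between values gave whole reads for 100% of them (tolerance 0.01 reads). No other sample columns were present (0).

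R 4.3.3 and limma 3.58.1 were used for two-sided tests of the log2 values, with limma's intensity trend, with Benjamini-Hochberg adjustment over all genes and a threshold of 0.05. A fold change of log2 values holds the small offset of the authors. GC content and length came from GENCODE M21 transcripts, matched by Entrez number for 95.3% of genes. The fit was also run on counts simulated with the same spread for every gene and no trend on GC content. No result here rests on that run. The 10 genes, the lists and the comparison without the shared library were chosen with earlier results of these data known. The genes named are the 10, up to 6 per clock list with an unadjusted p under 0.05, others of these lists by count or as relatives, and the 5 nearest profiles of Dbp and Noct. Bhlhe40, Rora, Tef, Csnk1d, Csnk1e, Cebpd and Ddit4 were named outside that rule after their values were seen. Some genes of these lists enter the counts and are not reported here by name.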

Additional observations from a re-analysis of the deposited data

How the results depend on the processing

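In the labelled comparison 0 genes were called under all scalings, offsets, filters, variance models and voom; leaving out single columns gave 0 to 2, and 2 were called with the shared library in Control only, 2 with it in mDrp1HET only and 22 without both its columns, where Noct passed (1.74, limma adjusted p = 0.0437). The 22 calls of the 4-library comparison became 0 with median centring (1976 genes at an unadjusted p under 0.05), 0 without the intensity trend (1811), 1 with quantile normalization, 9 with a minimum mean of 3 log2 CPM, 12 with the GC trend removed (added after the data were seen), 51 with voom and 202 with a robust fit. Leaving out single libraries gave 77 to 325, with the lone library of a group assumed to vary like the others. Noct lost its call in 5 of the 15 alternatives of that comparison and had a log2 fold change of 1.44 to 2.04 across them. The cause was not tested.

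Signs turned for Arntl as labelled with median centring (-0.091), quantile normalization (-0.094), array weights (-0.074) and the GC trend removed (-0.011), and in the 4-library comparison with median centring (-0.14), quantile normalization (-0.14) and the GC trend removed (-0.017). Cry2 turned as labelled with the shared library in mDrp1HET only (0.080) and with the GC trend removed (0.0018, and 0.0029 in the 4-library comparison). Leaving out single libraries as labelled gave -0.11 to 0.14 for Arntl and -0.33 to 0.13 for Cry2. In the 4-library comparison it gave -0.21 to 0.27 for Arntl, -0.032 to 0.76 for Per1, -0.012 to 0.99 for Per2, -0.025 to 0.45 for Per3 and -0.37 to 0.072 for Cry2. Clock, Nr1d1, Nr1d2, Dbp and Noct kept their sign in every alternative of both comparisons. These comparisons are not separate checks. As labelled, the shared library adds nearly the same value to each group, so the sign largely follows the 4-library comparison. The labelled alternative without both columns of the shared library is the 4-library comparison itself. Tests by edgeR and DESeq2 were not run, since the deposited unit is log2. No paired analysis was possible because the labels give the groups no shared replicate numbers.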
